A study of Homo sapiens with 4 samples.

Results

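The enzymes that build nucleotides, and the serine and folate pathway that supplies them with carbon, were followed in a colon cancer epithelial line that was left untreated or given TGF-β1, a cytokine known to slow epithelial growth. The 32 genes were chosen by name from a list of purine, pyrimidine, deoxynucleotide and one-carbon enzymes. The rule itself uses no measured value to pick a gene, but the list was drawn up with earlier results of these data known. All 32 were measured among 19775 genes, 11 of purine synthesis, 5 of pyrimidine synthesis, 8 of deoxynucleotide supply and 8 of serine and one-carbon metabolism. The LSTGFBR2 line carries a doxycycline-inducible construct of TGFBR2, the type II TGF-β receptor, and is a single engineered line. The 4 arrays came from 2 untreated samples and 2 samples given recombinant human TGF-β1 at 5 ng/ml for 16 hours, begun 16 hours after seeding. Doxycycline, which switches the construct on, is given as 1 µg/ml in the treatment protocol and as 1 µM in the growth protocol, and the labels do not say which samples received it. The receptor gene TGFBR2 read 9.44 and 9.55 on untreated and 14.70 and 14.92 on TGF-β1 arrays by the probe set used. TGF-β1 and the receptor's level therefore cannot be told apart, and every difference below is one between these 2 groups of arrays.

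Values are log2 intensities of a 1-colour oligonucleotide array made by the RMA method, so a difference of 1 is a 2-fold change. A short group of probes, the probe set, reads each transcript, and its brightness depends on the probes, so levels were compared between arrays and not between genes. Array medians over all probe sets were 6.57 to 6.61, and replicate arrays correlated at r = 0.996 across genes in both groups. Of the epithelial markers, EPCAM read 14.12 to 14.29 and KRT18 14.95 to 15.17, and over the list of 10 the log2 fold change was below 0 for 2. The intestinal transcription factor gene CDX2 was the 1 called, from 9.32 and 9.14 to 8.57 and 8.43 (limma adjusted p = 0.0327, and 0.101 to 0.195 with 1 array left out), while CDH1 and KRT19 stood higher by 0.56 and 0.47 and did not pass. Of the leukocyte genes, PTPRC read 4.50 to 4.75 and CD3E 7.21 to 7.38. Of the endothelial genes, CDH5 read 4.69 to 4.86 and PECAM1 7.34 to 7.58. The fibroblast gene COL1A1 read 9.29 to 9.37. CD3E, PECAM1 and COL1A1 thus lay above the array medians, and PTPRC and CDH5 below them. None of 7 fibroblast, 5 endothelial and 4 leukocyte markers passed the limma test, although 2 of the fibroblast markers were lower at an unadjusted p under 0.05. The fibroblast collagen gene COL3A1, named after its values were seen, read 9.18 and 7.48 without and 7.38 and 5.83 with TGF-β1, and the part of these markers in the values below was not tested. Of the TGF-β targets, CCN2, SKIL and SMAD7 were called higher with TGFBR2 and CDKN1A, at log2 fold changes of 4.59, 2.85 and 1.84.

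Cells make purines by building the ring on phosphoribosyl pyrophosphate, and pyrimidines by building the ring first and joining the sugar later. Ribonucleotide reductase then turns ribonucleotides into the deoxynucleotides used for DNA, and thymidylate synthase makes the DNA base thymine with a folate-borne carbon. That carbon comes mainly from serine through the folate cycle, which also feeds the purine ring. Dividing intestinal epithelium and its tumours depend on these routes, and antifolates and fluoropyrimidines used against colorectal cancer act on them.

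The enzyme genes read lower in the TGF-β1 arrays as a group, by small amounts. Of the 32 genes, 3 fell at a limma adjusted p under 0.05, namely PPAT, GART and DHODH, against 1.47% of all genes called lower, and 0 rose, against 1.87% called higher. At an unadjusted p under 0.05, 17 were lower, against 8.54% of all genes, and 0 were higher. The log2 fold change, TGF-β1 minus untreated, was below 0 for all 32, from -1.21 to -0.0022, against 51.1% of all genes, with RRM1 alone turning to the other side of 0 when arrays were centred on their medians. The median over the enzymes was -0.29, and over all genes -0.0036. In 25 of the 32, both TGF-β1 arrays lay below both untreated arrays, against 23.0% of all genes, and in 0 both lay above, against 21.4%. Less RNA per cell and fewer cells that make a transcript cannot be told apart in these bulk samples.

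The enzymes are bright on these arrays, so genes of like brightness were also counted. Over the 4886 genes whose mean log2 reached 10, the median log2 fold change was -0.01 and 53.0% were below 0. Of these genes 2.70% were called lower, 14.1% were lower at an unadjusted p under 0.05, and 31.8% had both TGF-β1 arrays below both untreated ones. Of the 27 enzymes at that brightness, 1 was called, GART, 15 were lower at an unadjusted p under 0.05, and 23 had groups that did not overlap. The calls rest on few arrays. Leaving out each array in turn gave limma adjusted p of 0.0397 to 0.116 for PPAT, 0.111 to 0.236 for GART and 0.0938 to 0.205 for DHODH. PPAT alone was called in any of these fits, the one without TGF-β1 replicate 1.

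**Figure D1:**
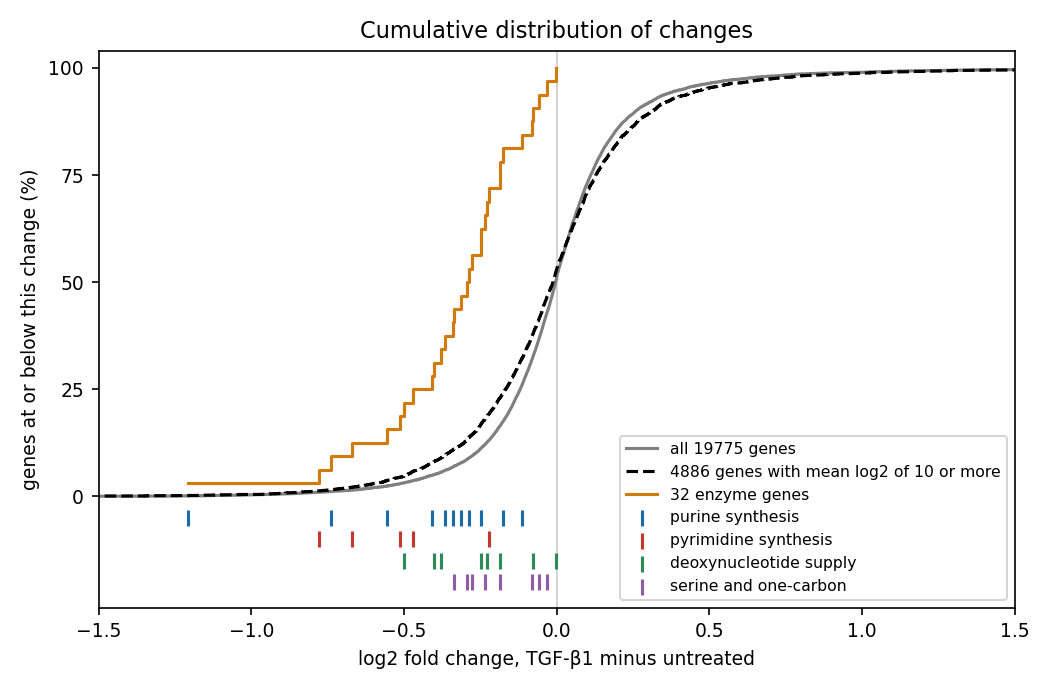
Cumulative share of genes (vertical axis, percent) at or below each log2 fold change, TGF-β1 minus untreated (horizontal axis), for all 19775 genes, for the 4886 whose mean log2 reached 10 and for the 32 enzymes, with a tick for each enzyme coloured by step. The curve of the enzymes reaches its end at 0, while the other curves cross 0 near 51.1% and 53.0%.

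The purine route opens with the PRPS enzymes, which make phosphoribosyl pyrophosphate. PRPS1 read 11.66 and 11.62 without and 11.31 and 11.40 with TGF-β1. PRPS2 read 11.72 and 11.66 against 11.52 and 11.51. Neither passed (limma adjusted p = 0.216 and 0.463), although the groups did not overlap for either gene, and the log2 fold changes were -0.29 ± 0.0992 and -0.18 ± 0.0971 (SE, n = 2 per group).

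PPAT encodes the amidotransferase that commits phosphoribosyl pyrophosphate to purine synthesis. On untreated arrays it read 10.64 and 10.55, and on TGF-β1 arrays 9.56 and 9.22. The gap between the groups was several times the spread within them, from 10.60 ± 0.0604 to 9.39 ± 0.237 (SD, n = 2). PPAT was 2.31-fold lower (log2 fold change -1.21 ± 0.137 SE, limma adjusted p = 0.0136), the largest change among the 32 enzymes and the 26th lowest of 19775 genes. The other bright probe set of PPAT had a log2 fold change of -1.04, and a dim one, near the array medians, -0.04. PPAT also was the 1 enzyme of the 32 that met the mirror of the study's signature rule, an unadjusted p under 0.05 with at least a 2-fold change.

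GART is a single protein with 3 enzyme activities that act in the steps after PPAT, among them a transfer of folate-borne carbon. Untreated arrays read 11.15 and 10.96 and TGF-β1 arrays 10.44 and 10.19, with no overlap. GART was 1.67-fold lower (log2 fold change -0.74 ± 0.131 SE, limma adjusted p = 0.0439, and 0.0686 when all 41091 probe sets were tested). It has 9 probe sets, of which 8 were lower. The 4 brightest of them gave -0.74, -0.73, -0.61 and -0.88, and the only one above 0 was the dimmest (mean log2 3.50).

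The later steps to inosinate, the first complete purine nucleotide, differed less. PFAS, the amidotransferase that adds a ring nitrogen, read 10.89 and 10.73 against 10.24 and 10.27. Its log2 fold change of -0.55 ± 0.106 (SE) missed the threshold (limma adjusted p = 0.0512). PFAS passed under 5 other settings (limma adjusted p from 0.0344 to 0.0494). It missed with arrays centred on their medians, with a replicate block and with all probe sets tested (limma adjusted p from 0.0537 to 0.0829). With 1 array left out its log2 fold change was -0.63 to -0.48. PAICS, which adds a carbon and aspartate, read 13.21 and 13.03 against 12.80 and 12.62 (-0.41 ± 0.119, limma adjusted p = 0.149). ADSL, the lyase that removes fumarate, read 11.73 and 11.81 against 11.41 and 11.46 (-0.34). ATIC, which closes the ring with a second folate-borne carbon, read 12.45 on both untreated arrays, 12.15 and 12.12 with TGF-β1 (-0.31). Neither ADSL nor ATIC passed (limma adjusted p = 0.148 and 0.163).

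Read by the probe sets used, the 6 genes from PPAT to ATIC thus ran roughly in the order of the reactions, with log2 fold changes of -1.21, -0.74, -0.55, -0.41, -0.34 and -0.31. Standard errors were 0.0958 to 0.137, and the 95% intervals of neighbours in this order overlapped. The order also depended on the probe sets. PAICS has another, dimmer probe set that read 8.189 and 8.001 without and 6.575 and 6.867 with TGF-β1, a log2 fold change of -1.37 (limma adjusted p = 0.0181 over all probe sets). With the probe sets of each gene averaged, PAICS was at -0.76 (limma adjusted p = 0.0176) and PPAT also at -0.76, so PAICS left the order. GART, PFAS, ADSL and ATIC were then at -0.56, -0.55, -0.37 and -0.31.

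PPAT and PAICS are encoded head to head on chromosome 4, and the stretch between their starts is shown because both genes, whose groups did not overlap, start from it. In the RefSeq promoter table (GRCh38.p14), 136 bases separate the PPAT start, on the minus strand, from the PAICS start that faces it, on the plus strand. They lie at chr4:56435616-56435751 and are printed on the plus strand, so PPAT is read leftward from the first base and PAICS rightward from the last. Of these bases, 75.0% are G or C.
PPAT-PAICS: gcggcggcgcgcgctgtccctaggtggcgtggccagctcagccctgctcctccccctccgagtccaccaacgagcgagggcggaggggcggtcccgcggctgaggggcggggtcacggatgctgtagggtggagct

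The promoter table was then searched for CACGTG, the E-box that MYC with its partner MAX is known to bind, which reads the same on both strands. Each window runs from 250 bases before to 50 after a start, and a gene can have several. Of the 32 enzymes, 28 had an entry, and 8 of these (28.6%) held the motif in at least 1 window, against 8.77% of 27305 genes and 7.26% of 35116 windows in the table. The 8 were ATIC, DCTPP1, DHODH, MTHFD1, MTHFD1L, NME1, PAICS and PPAT. The 28 enzymes had 42 windows, and genes of like brightness were not counted apart. PPAT and PAICS share 1 match, which lies 182 bases before the PPAT start and begins at base 41 of the PAICS transcript. Stretches of 30 bases with the motif in capitals, each on the strand of its gene, show how the flanks differ between the members.
PPAT: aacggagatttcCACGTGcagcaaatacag
DHODH: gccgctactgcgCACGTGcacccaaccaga
DCTPP1: ggagggttcctcCACGTGgtcgggaagcgg
ATIC: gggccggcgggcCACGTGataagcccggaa
MTHFD1: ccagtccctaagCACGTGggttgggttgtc
These lie at chr4:56435780-56435809 (minus strand), chr16:72008573-72008602 (plus), chr16:30429792-30429821 (minus), chr2:215312001-215312030 (plus) and chr14:64388326-64388355 (plus). The match in DHODH begins 159 bases before the start, in DCTPP1 9 and in MTHFD1 15. The ATIC match printed begins 46 bases before the start, and another begins at base 30 of its transcript. The median log2 fold change was -0.39 over the 8 enzymes with a match and -0.26 over the 20 with an entry and no match, and GART, called lower, was among the latter. A match is a description of these letters and not a binding site. MYC itself read 12.14 and 11.99 without and 10.55 and 10.42 with TGF-β1 (log2 fold change -1.58 ± 0.111 SE, limma adjusted p = 0.00311) and was called in all 4 fits with 1 array left out, while MAX did not pass (limma adjusted p = 0.495). The part of MYC in the enzymes' values was not tested.

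From inosinate the guanylate branch leads through IMPDH, its dehydrogenase, to GMPS, which makes guanylate. IMPDH1 read 10.38 and 10.42 against 10.31 and 10.26 (log2 fold change -0.11, 95% interval -0.35 to 0.12). IMPDH2, the form that is raised in proliferating cells, read 13.39 and 13.31 against 13.18 and 13.02 (log2 fold change -0.25, interval -0.51 to 0.02). GMPS read 11.66 and 11.51 against 11.33 and 11.10 by its brightest probe set (log2 fold change -0.37, limma adjusted p = 0.206). A second GMPS probe set read 10.02 and 9.91 against 9.14 and 9.10, a log2 fold change of -0.85 that passed over all probe sets (limma adjusted p = 0.0299). Of the 11 purine genes 2 were called lower, against 1.47% of all genes, and their median was -0.34. In all 11 both TGF-β1 arrays lay below both untreated arrays, against 23.0% of all genes and 31.8% of the bright ones.

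**Figure D2:**
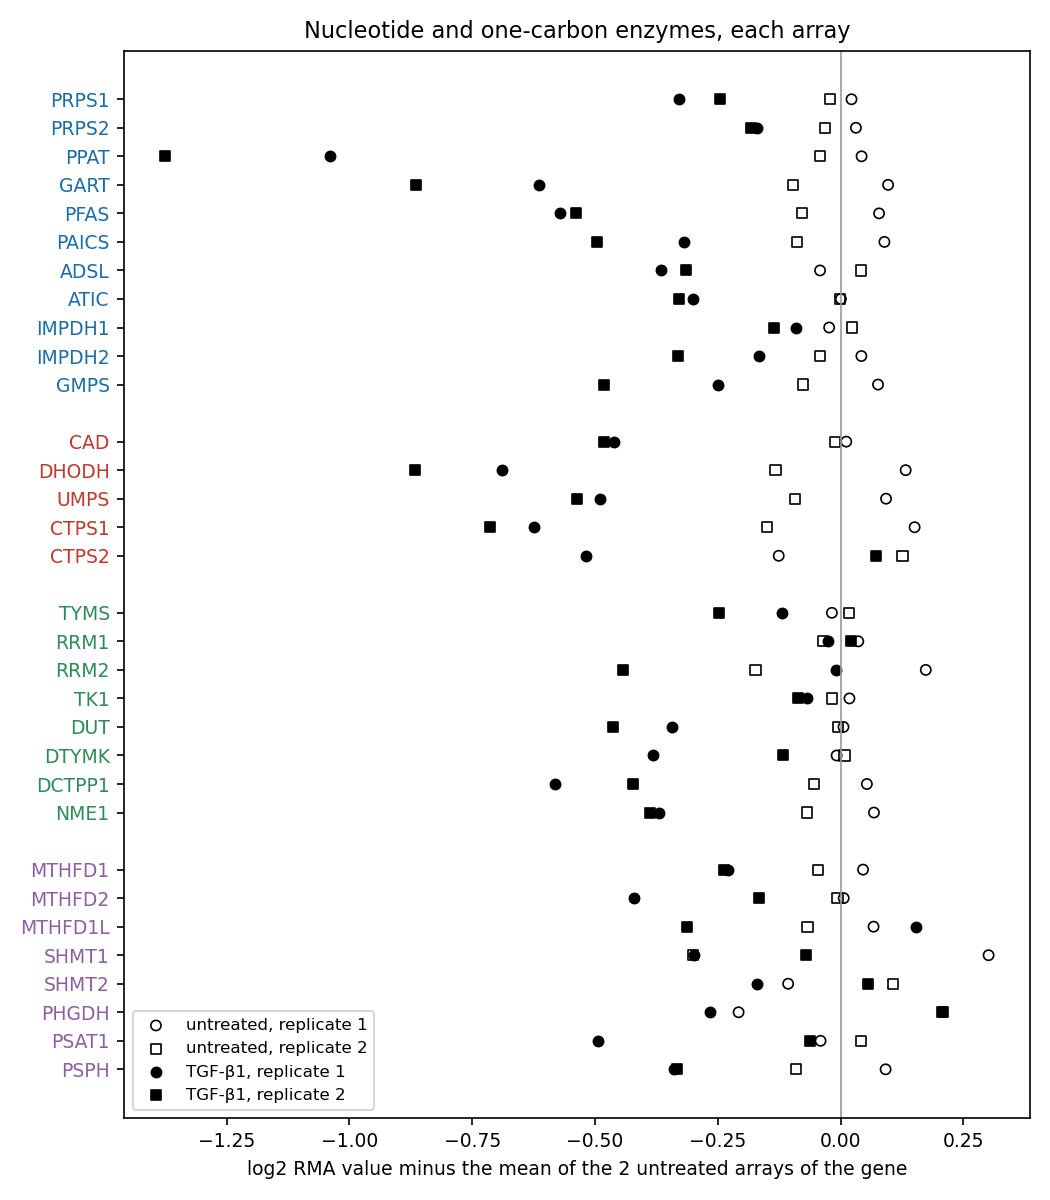
Log2 value of each enzyme gene on each of the 4 arrays, minus the mean of its 2 untreated arrays (horizontal axis), with genes in pathway order on the vertical axis, open symbols for untreated and filled ones for TGF-β1 arrays, circles for replicate 1 and squares for replicate 2. Filled symbols lie left of both open ones in 25 of 32 genes, farthest for PPAT, and mix with them for CTPS2, RRM1, RRM2, MTHFD1L, SHMT1, SHMT2 and PHGDH.

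The 5 pyrimidine genes had a median log2 fold change of -0.51, and 1 of them was called lower, against 1.47% of all genes. CAD carries out the opening steps of the route in a single large protein. Its arrays were close within both groups, at 10.69 and 10.67 without and 10.22 and 10.20 with TGF-β1 (log2 fold change -0.47 ± 0.0958 SE, limma adjusted p = 0.0609). DHODH, the mitochondrial dehydrogenase that makes orotate, read 8.37 and 8.10 against 7.55 and 7.37. It was 1.71-fold lower, from 8.24 ± 0.187 to 7.46 ± 0.126 (SD, n = 2), and passed (log2 fold change -0.78 ± 0.132 SE, limma adjusted p = 0.0395, and 0.0631 when all probe sets were tested). Its other probe sets, which are dimmer, gave -0.58 and -0.79.

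UMPS, which turns orotate into uridylate, read 11.37 and 11.19 against 10.79 and 10.74 (log2 fold change -0.51 ± 0.110 SE, limma adjusted p = 0.0695). All 4 of its probe sets were lower, by -0.30 to -0.51. CTPS1 and CTPS2 are alternative enzymes for the last step, from UTP to CTP. CTPS1 read 11.46 and 11.16 against 10.69 and 10.60 (log2 fold change -0.67 ± 0.131 SE, limma adjusted p = 0.0548). CTPS2 read 9.48 and 9.73 against 9.09 and 9.68, so its groups overlapped (-0.22, 95% interval -0.73 to 0.28), and its other probe set gave 0.07. The intervals of CTPS1 and CTPS2 overlap, and the difference between the paralogs was not tested. In 4 of the 5 pyrimidine genes, all but CTPS2, both TGF-β1 arrays lay below both untreated ones, against 23.0% of all genes.

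Of the 8 genes of deoxynucleotide supply, 0 passed by limma, against 1.47% of all genes called lower. At an unadjusted limma p under 0.05, 3 were lower, against 8.54% of all genes and 14.1% of the bright ones. The median over the 8 was -0.24. RRM1, the large subunit of ribonucleotide reductase, read 12.19 and 12.12 without and 12.13 and 12.18 with TGF-β1. Its 95% interval ran from -0.24 to 0.24, the groups overlapped, and its sign turned with array centring. RRM2, the small subunit that is made around S phase, read 13.87 and 13.53 against 13.69 and 13.26. Replicate 2 lay below replicate 1 by 0.35 and 0.43 in the 2 groups, more than the difference of -0.23 between them. TYMS, thymidylate synthase, read 12.90 and 12.93 against 12.80 and 12.67 (interval -0.43 to 0.07). Its other probe sets, which are dimmer, gave log2 fold changes of -0.26 and -0.58. TK1, the cytosolic thymidine kinase, read 10.92 and 10.88 against 10.83 and 10.81 (interval -0.31 to 0.16), and its other probe set gave -0.14.

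The remaining members clean up the nucleotide pool or phosphorylate it. Both TGF-β1 arrays lay below both untreated ones in all 4 of these and in 6 of all 8 deoxynucleotide genes. The shares were 23.0% of all genes and 31.8% of the bright ones. DCTPP1, a pyrophosphatase that removes modified dCTP, read 12.56 and 12.45 against 11.93 and 12.09 (log2 fold change -0.50 ± 0.110 SE, limma adjusted p = 0.0736). DUT, which keeps uracil out of DNA by splitting dUTP, read 12.53 and 12.52 against 12.18 and 12.06 (-0.40, limma adjusted p = 0.103), and its other probe sets gave -0.39 and -0.38. NME1, a nucleoside diphosphate kinase, read 13.55 and 13.42 against 13.11 and 13.09 (-0.38, limma adjusted p = 0.125). DTYMK, thymidylate kinase, read 12.12 and 12.13 against 11.74 and 12.01 (-0.25, limma adjusted p = 0.394).

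Proliferation genes were read beside these, because deoxynucleotide enzymes vary with the cell cycle. Of 14 such genes, 4 fell and 0 rose, while at an unadjusted p under 0.05 the count was 9 lower, 0 higher, against shares of 1.47% and 8.54% lower over all genes. CCNE2 was 2.63-fold, CCNE1 1.89-fold, MCM2 1.73-fold and PCNA 1.49-fold lower. Their products act at the entry into S phase and in DNA replication. With 1 array left out, 0 of these 4 was called in more than 1 fit, and CCNE2 alone was called at all, without TGF-β1 replicate 1 (limma adjusted p = 0.0304). CDK1 (log2 fold change 0.01), TOP2A (-0.05) and MKI67 (0.31), which mark cycling cells, did not pass. CDKN1A, the gene of the cell cycle inhibitor p21, was 3.75-fold higher. Among regulators, E2F2 fell (1.77-fold, limma adjusted p = 0.0352, and 0.0989 to 0.197 with 1 array left out), E2F1 had a log2 fold change of -0.45 (limma adjusted p = 0.0731) and E2F3 one of 0.01. A search of the same promoter windows, on both strands, for the E2F forms TTTCCCGC, TTTCGCGC, TTTGCCGC and TTTGGCGC found 4 of 28 enzymes, DUT, GART, PRPS2 and TYMS, against 3.99% of genes. The median log2 fold change was -0.2938 over these 4 and -0.2905 over the 24 with an entry and no match. The part of the cell cycle in the enzymes' values was not tested.

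**Figure D3:**
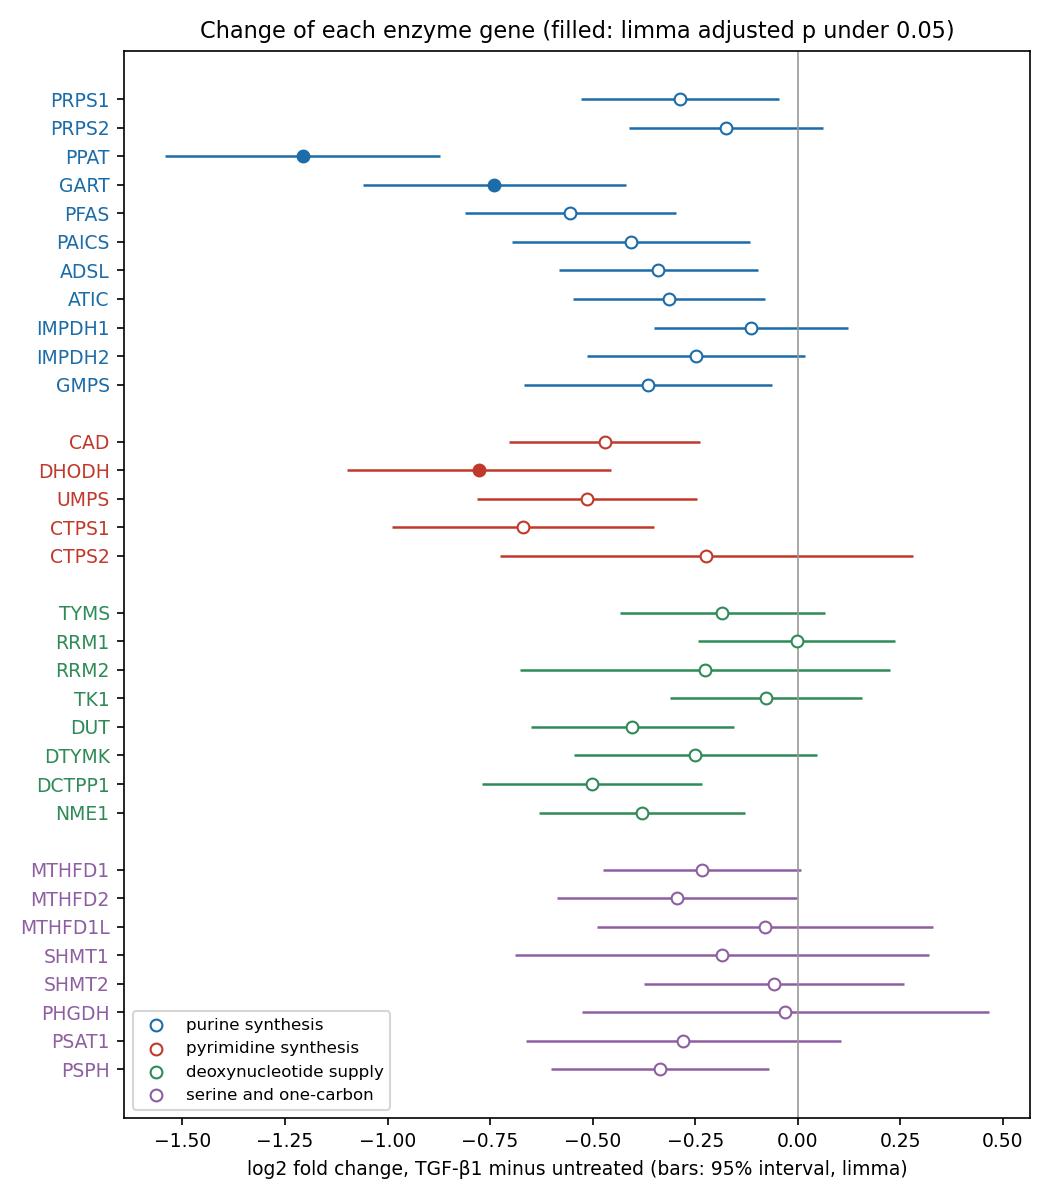
Log2 fold change of each enzyme, TGF-β1 minus untreated (horizontal axis), with its 95% limma interval as a bar, genes in pathway order on the vertical axis, colours for the 4 steps and filled symbols for an adjusted p under 0.05. PPAT, GART and DHODH are filled, the intervals of 17 enzymes, these 3 included, lie wholly below 0, and the other 15 reach or cross it.

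Of the 8 serine and one-carbon enzymes, 0 passed by limma, against 1.47% of all genes called lower. At an unadjusted limma p under 0.05, 2 were lower, against 8.54% of all genes. The median over the 8 was -0.21. This median was -0.12 without TGF-β1 replicate 1 and -0.13 with averaged probe sets. Serine is made in 3 steps. PHGDH, the entry enzyme, read 11.77 and 12.19 without and 11.71 and 12.19 with TGF-β1, so the groups lay over each other (log2 fold change -0.03, interval -0.53 to 0.47). PSAT1, the aminotransferase, read 13.34 and 13.42 against 12.88 and 13.31 (-0.28, interval -0.66 to 0.11). PSPH, the phosphatase that ends the route, read 10.42 and 10.23 against 9.99 and 9.99 (-0.34, limma adjusted p = 0.187), and its other probe sets gave -0.40 and -0.48.

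The folate enzymes that take carbon from serine work in the mitochondria and in the cytosol. SHMT2, the mitochondrial hydroxymethyltransferase, read 12.30 and 12.51 against 12.24 and 12.46, with overlap (interval -0.37 to 0.26). MTHFD2, the mitochondrial dehydrogenase that is high in tumours, read 12.95 and 12.94 against 12.52 and 12.78 (log2 fold change -0.29 ± 0.120 SE, limma adjusted p = 0.296). MTHFD1, its cytosolic counterpart with 3 activities, read 12.37 and 12.28 against 12.10 and 12.09 (-0.23, limma adjusted p = 0.315). SHMT1, the cytosolic hydroxymethyltransferase, and MTHFD1L, the mitochondrial formate maker, read low. Their brightest probe sets averaged 5.87 and 5.91, under the array medians, and their groups overlapped (log2 fold changes -0.18 and -0.08).

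Some of these genes differed more between replicate numbers than between the groups. PHGDH was higher in replicate 2 than in replicate 1 by 0.42 in untreated and 0.47 in TGF-β1 arrays, and SHMT2 by 0.21 and 0.23, against group differences of -0.03 and -0.06. PSAT1 was also higher in replicate 2, by 0.08 and 0.43, beside a group difference of -0.28. ATF4, which encodes the transcription factor known to induce serine synthesis genes, also read higher in replicate 2, at 12.88 and 13.21 without and 12.88 and 13.24 with TGF-β1. Its log2 fold change between the groups was 0.01. PSPH, the last gene of serine synthesis, was not higher in replicate 2 in both groups. Its difference, replicate 2 minus replicate 1, was -0.18 in untreated and 0.0059 in TGF-β1 arrays. Of all 8 serine and one-carbon genes, 3 were higher and 2 lower in replicate 2 in both groups, against 30.9% and 27.2% of all genes. Of the 11 purine genes, 7 were lower in replicate 2 in both groups and 1 was higher, and of the 5 pyrimidine genes 4 were lower and 1, CTPS2, was higher. Of the 8 deoxynucleotide genes, 4 were lower and 1 was higher. These differences between the steps were not tested. The labels do not say what the replicate numbers mark, and what they share was not tested.

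**Figure D4:**
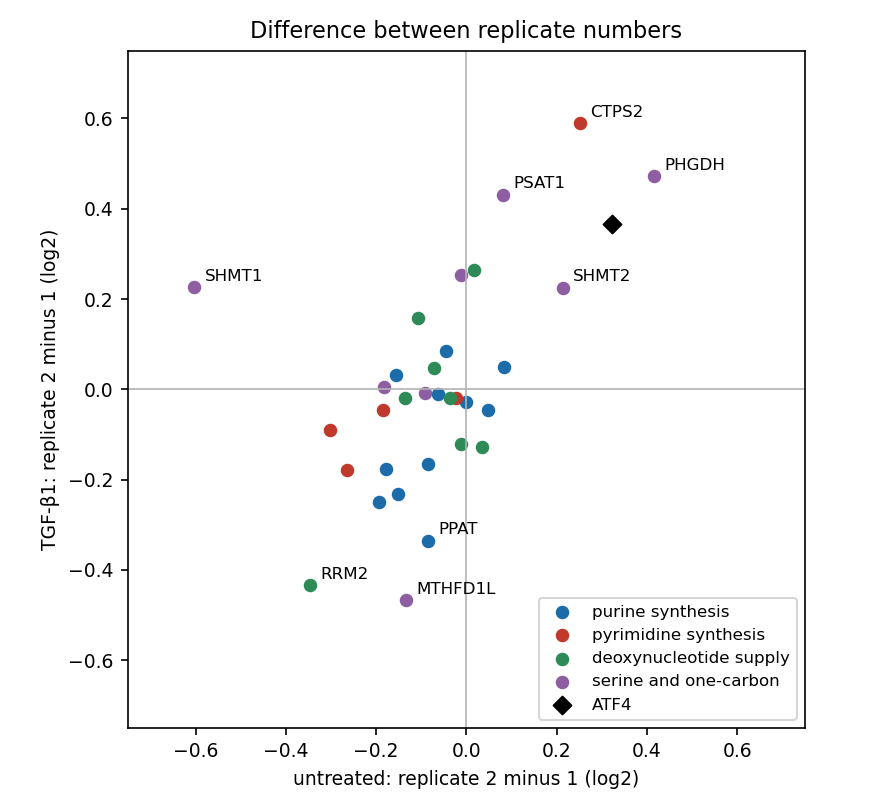
Difference between replicate 2 and replicate 1 on the log2 scale for each enzyme, in untreated arrays (horizontal axis) and in TGF-β1 arrays (vertical axis), coloured by step, with ATF4 as a diamond. PHGDH, SHMT2, PSAT1 and ATF4 lie in the upper right, where replicate 2 was higher in both groups, and RRM2, PPAT and most purine genes in the lower left.

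Every probe set of the enzymes was then read as a check on the choice of 1 per gene. The 32 genes have 76 probe sets, and 71 of these had a log2 fold change below 0. Of the 5 above 0, 4 had a mean log2 under 7, and the other belonged to CTPS2. Among the 29 unused probe sets with a mean log2 of 7 or more, 28 were below 0. With all 41091 probe sets tested, 3 of the 76 were called, 1 each of PPAT, PAICS and GMPS. Probe sets of 1 gene share the same RNA and are not independent.

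**Figure D5:**
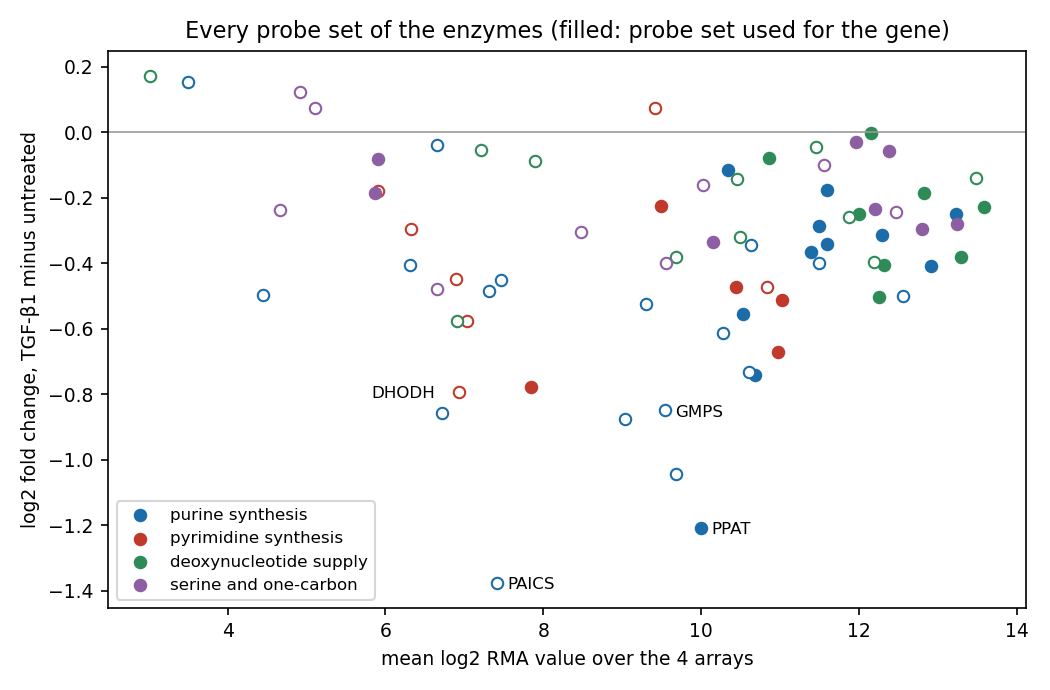
Mean log2 value over the 4 arrays (horizontal axis) and log2 fold change, TGF-β1 minus untreated (vertical axis), of all 76 probe sets of the enzymes, coloured by step, filled where the probe set stands for its gene. Of the 76, 71 lie below 0, and the lowest belong to PAICS (-1.37) and PPAT (-1.21).

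Other genes of the pathways, which salvage bases, phosphorylate nucleosides, or carry and recycle folate, were read from lists that did not hold the enzymes. Of 46 measured, 1 fell and 1 rose, which is near the 1.47% and 1.87% of all genes. Their median was -0.11, and 32 were below 0, against 51.1% of all genes. At an unadjusted limma p under 0.05, 8 were lower, against 8.54% of all genes, and 3 were higher. In 20 both TGF-β1 arrays lay below both untreated arrays and in 4 above, against 23.0% and 21.4% of all genes. The gene that fell, SLC19A1, encodes the reduced folate carrier that brings folates and antifolates into the cell. Untreated arrays read 10.55 and 10.32 and both TGF-β1 arrays 9.41, 2.03-fold lower (log2 fold change -1.02 ± 0.117 SE, limma adjusted p = 0.0138, and 0.0525 to 0.102 with 1 array left out). The mitochondrial folate carrier gene SLC25A32 read 11.44 and 11.26 against 10.85 and 10.63, and did not pass (-0.61, limma adjusted p = 0.0607). MTR and MTRR, methionine synthase and its reductase, had log2 fold changes of -0.49 and -0.50 (limma adjusted p = 0.0626 and 0.0724).

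The gene that rose was CDA, cytidine deaminase, which salvages cytidine and inactivates cytidine analogue drugs. Untreated arrays read 7.63 and 7.74 and TGF-β1 arrays 9.11 and 9.27, 2.84-fold higher (log2 fold change 1.51 ± 0.110 SE, limma adjusted p = 0.00353), and was called in all 4 fits with 1 array left out. The 23 salvage genes and kinases had a median of -0.04. HPRT1, DCK and APRT, which salvage purine bases and deoxycytidine, stood at -0.18, -0.18 and -0.24 on the log2 scale and did not pass. ADSS1, a form of adenylosuccinate synthase, stood at 0.59 and GMPR, which turns guanylate back to inosinate, at -0.51, and neither passed (limma adjusted p = 0.0669 and 0.0574). The 23 folate and methionine genes had a median of -0.15, with 13 whose TGF-β1 arrays both lay below the untreated ones, against 23.0% of all genes.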

How the data were processed

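The deposited table holds log2 values for 54675 probe sets on 4 arrays. The authors made these log2 values from HG-U133 Plus 2.0 arrays by the RMA method, with quantile normalization between background correction and summarization, per the series' design text. Its version is not given here. Quantile normalization hides a shift of most transcripts, and RMA gives no detection call. Probe sets with 1 gene symbol in the platform annotation (41091, array controls left out) were named, with symbols updated through Entrez IDs for 41037. The brightest probe set by its 4-array mean stood for each of 19775 genes.

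Untreated and TGF-β1 arrays were tested by lmFit and eBayes of limma 3.58.1, run in R 4.3.3 (no trend, no covariate, all 4 arrays, two-sided), with Benjamini-Hochberg adjustment over all genes and calls at 0.05. Errors and intervals have 6.13 degrees of freedom. Nothing in the labels says that replicates were separate cultures, so the spread behind the p-values is that among these arrays and may be technical. The number of arrays limits the precision, and no permutation test was run, since 2 against 2 allows no exact two-sided p under 0.333. The fit was tested on simulated data. A gene that did not pass is not shown to be unchanged.

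Named genes were the 32 members, called genes of the other pathway, regulator, proliferation and TGF-β response lists (at most 6 each) and 8 fixed reference genes, and other genes were named after their values were seen. The members and lists were chosen with earlier results of these data known, and the brightness limit of 10 and the motifs after the data were seen. Alternatives were averaged or separately tested probe sets, a minimum mean log2 of 5 or 7, centring on array medians or on 7 of 8 housekeeping genes (the eighth had no probe set of its own), an intensity trend, a replicate block, each array left out, and other thresholds.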

Additional observations from a re-analysis of the deposited data

How the results depend on the processing

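In place of 3 enzymes called, all lower, 6 were called, all lower, with averaged probe sets and also with an intensity trend, 8 with a minimum mean log2 of 7, 1 with all probe sets tested, 1 by the study's signature rule in both directions, 17 at an unadjusted p under 0.05, and 0 to 1 with 1 array left out. With 1 array left out, 1 residual degree of freedom remains and the lone array is assumed to vary like the others. None was called higher under any of these settings. The replicate block left 3 enzymes called, all lower, and changed no member's side of the threshold. Deviations of arrays with the same replicate number correlated at 0.364 across genes, which with 2 pairs does not settle a pairing. Of the other pathway genes, 2 were called (1 lower, 1 higher), against 4 (3 lower) with averaged probe sets, 7 (5 lower, 2 higher) with a minimum mean log2 of 7, 2 lower with an intensity trend, 11 (8 lower, 3 higher) at an unadjusted p under 0.05, and 1 (0 lower) with any array left out. The pyrimidine median of -0.51 was -0.43 with averaged probe sets, -0.54 on housekeeping genes and -0.61 to -0.46 with 1 array left out, and the deoxynucleotide median of -0.24 was -0.32 to -0.23. RRM1 stood at 0.0023 with arrays centred on their medians. With 1 array left out, log2 fold changes crossed 0 for CTPS2 (-0.52 to 0.0717), RRM1 (-0.0381 to 0.0337), MTHFD1L (-0.31 to 0.15), SHMT1 (-0.49 to 0.12), SHMT2 (-0.17 to 0.0549) and PHGDH (-0.27 to 0.21), while the other 26 stayed below 0. The cause was not tested. Centring on housekeeping genes shifted all genes by -0.032.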
